A study of Homo sapiens with 2 samples.

Results

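Nucleoporins, exportins and importins were examined as targets of HNRNPC in A549, a cell line established from a human lung carcinoma. The set was chosen by gene symbol from protein-coding genes of the RefSeq annotation of GRCh38, as every numbered NUP, XPO, IPO, KPNA, KPNB or TNPO gene with XPOT, CSE1L, TPR and RANBP2. It holds 50 of 20037 protein-coding genes, 25 nucleoporins and 25 transport receptors. The set was proposed after XPO1 had been seen to hold a peak of high fold, so presence of a peak and fold are given as a description and no test was made. RNA bound to HNRNPC was isolated by RNA immunoprecipitation with 5 µg of antibody and sequenced (RIP-seq). The labels name no treatment, genotype change or time point. The series has 1 immunoprecipitate (IP) library and 1 input library of the same cells, and the values below come from the peaks called in the former. The input library was not analysed here. With 1 library per group no value has a replicate error and no p-value is given.

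The nuclear pore is the channel through which all traffic between nucleus and cytoplasm passes. Its scaffold is built from a Y-shaped complex and an inner ring, its channel is lined by nucleoporins with phenylalanine-glycine repeats, and filaments and a basket extend to the cytoplasmic and nuclear sides. Importins and exportins are soluble receptors that carry cargo through this channel, and the small GTPase RAN sets the direction. HNRNPC is a nuclear RNA-binding protein that binds runs of U in nascent transcripts and is known to take part in sorting RNA polymerase II transcripts between export routes.

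A gene was counted as having a peak when the summit of a peak lay in its span. Peaks were placed by position without strand, so a peak of an overlapping noncoding or opposite-strand transcript would be counted too. Fold is the authors' ratio over the background of the peak caller at the summit. Because most folds take a few fixed values, the number of IP reads over a summit and the level of the control could be worked out from each peak's fold and p under the scoring formula of MACS2. This gave a whole number of reads for 23113 of 23148 peaks, within a tolerance of 0.002 reads. On this scale 1 IP read counted as 0.535 of a control read, and the lowest control level was 0.103 reads. A level of 1 or more need not be a count of control reads at the summit itself. Some levels were not whole numbers, such as 2.23 to 2.26 at neighbouring KPNA6 peaks. Whether that control was the input library is not stated in the sources used here. Peaks carry no expression level, so absence of a peak and low expression cannot be told apart. Of 8 epithelial markers CDH1 alone had peaks (10), and none of 3 blood, 3 fibroblast and 2 endothelial markers had any, which for the same reason does not check the cell type.

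A minority of the peaks lay over the start of a transcript. The bases around annotated starts are shown first, because there the edge of the peak fell within a few bases of the start in several of the genes with the highest folds. They were taken from RefSeq start windows of GRCh38.p14, 5′ to 3′ on the gene strand, from 30 bases before the start to 30 bases from it on (for XPO1 only the latter 30), with the bases under the peak in capitals.
TNPO1, second start (chr5:72848109-72848168, plus strand): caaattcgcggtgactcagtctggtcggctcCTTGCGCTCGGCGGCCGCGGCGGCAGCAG
TNPO1, first start (chr5:72816631-72816690, plus strand): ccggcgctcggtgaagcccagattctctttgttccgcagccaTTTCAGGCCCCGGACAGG
NUP155 (chr5:37371077-37371136, minus strand): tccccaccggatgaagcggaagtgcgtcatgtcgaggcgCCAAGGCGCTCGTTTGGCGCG
XPOT (chr12:64404362-64404421, plus strand): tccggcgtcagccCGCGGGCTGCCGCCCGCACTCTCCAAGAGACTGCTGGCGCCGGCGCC
IPO8 (chr12:30695840-30695899, minus strand): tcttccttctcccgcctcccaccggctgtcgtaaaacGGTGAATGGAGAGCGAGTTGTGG
NUP205 (chr7:135557887-135557946, plus strand): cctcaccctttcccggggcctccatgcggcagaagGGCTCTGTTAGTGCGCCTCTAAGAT
IPO7 (chr11:9384622-9384681, plus strand): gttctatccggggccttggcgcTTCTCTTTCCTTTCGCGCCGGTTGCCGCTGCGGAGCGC
XPO1 (chr2:61538327-61538356, minus strand): AGGTTCCAAACGCTCCGCGGCGCCATGGGC

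Of the 50 genes 33 had a peak (66.0%, 95% exact Clopper-Pearson interval 51.2 to 78.8%, which covers counting error only), against 18.4% of all protein-coding genes. Together they held 381 peaks, 1.65% of the 23111 peaks on chromosomes 1 to 22, X and Y. Genes of this set are long, with a median span of 65.2 kb against 24.1 kb for all protein-coding genes, and longer genes had peaks more often. In span classes 7 to 10 of 10, which hold genes of 35.3 kb or more, 30 of 39 members had a peak (76.9%), against 33.6% of the 8015 genes of these classes. In the shorter classes 1 to 6 it was 3 of 11 members, namely NUP43, NUP50 and TNPO2, against 8.25% of 12022 genes. At least 10 summits were held by 18 members (36.0%), against 3.9% of all protein-coding genes. The median number was 10 peaks per member with a peak, against 4 over all 3685 genes with a peak, and the median of the best folds was 9.16 against 7.04. The best of many peaks tends to be higher than the best of few. Over all member peaks the median fold was 6.14, against 5.76 over all peaks.

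**Figure D1:**
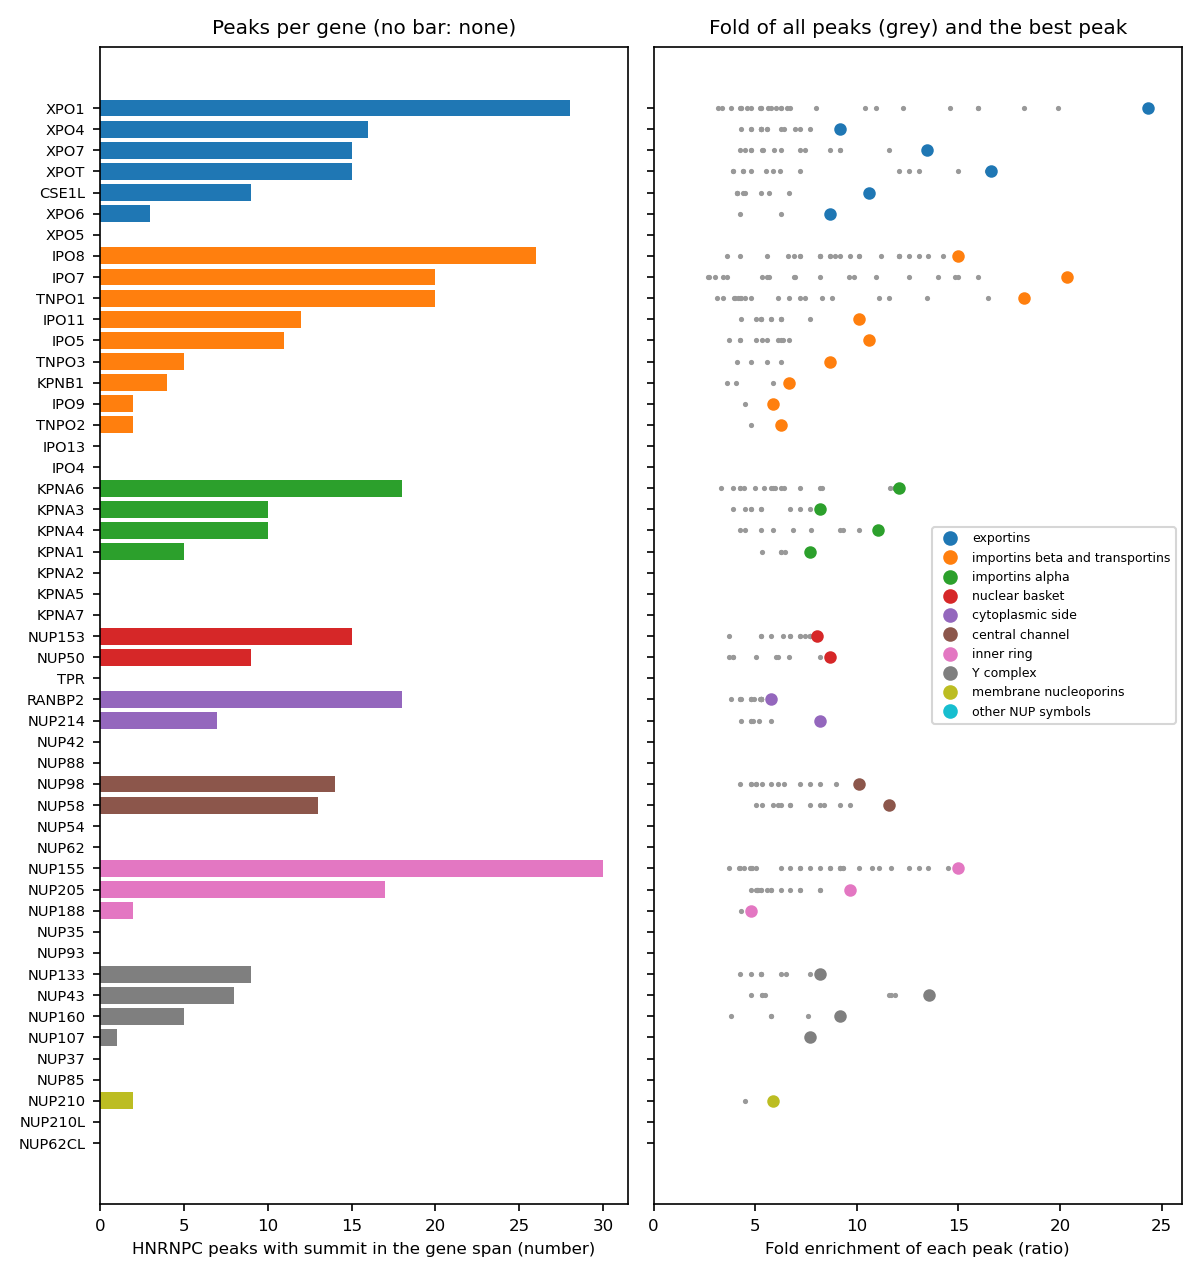
The number of peaks in each of the 50 genes (left, bars) and the fold enrichment of every peak (right, ratio over background; grey points, with the best peak of each gene as a coloured circle), grouped by role. NUP155 holds the most peaks (30), XPO1 has the highest fold (24.3), and 17 genes have no bar.

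Among the exportins 6 of 7 had peaks. This count and those of the other roles below stand beside 18.4% of all protein-coding genes, and 33.6% of those in span classes 7 to 10. XPO1, the main export receptor for proteins with leucine-rich signals and for several RNAs, carried 28 peaks over a span of 60.8 kb (NCBI gene 7514, chr2:61477849-61538612, minus strand). Its density of 46.1 peaks per 100 kb ranked 102 among the 3685 genes with a peak and was the highest of the set. Peaks covered 13.7% of its span. Its strongest peak, chr2:61537528-61538548, was 1021 bp wide, had its summit 873 bp from the 5′ end of the span and reached a fold of 24.3 with 50 IP reads at a control level of 0.141. By fold this peak ranked 5 among all peaks of the list, and XPO1 likewise ranked 5 among genes.

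The peaks of XPO1 fell into separate stretches. The first 5 kb held 6 peaks with folds from 4.79 to 24.3. Another 6 lay 12 to 16 kb from the 5′ end, with folds from 4.30 to 15.95, and only 2 lay between 16 and 35 kb, 1 of them at 4.30 and the other at 3.82. From 35 kb on there were 14, among them 6 of the 9 XPO1 peaks with a fold of 10 or more. These included a peak of 154 bp at 41.6 kb with a fold of 10.9 and a peak of 232 bp at 38.8 kb with 19.9. The most IP reads over any summit of the set, 53, lay at 45.6 kb, where the control level of 0.611 gave a fold of 18.2. The last 3 peaks, beyond 48 kb, had folds of only 3.15 to 4.27 with 30 to 51 IP reads over their summits and control levels of 3 to 8. XPO1 thus had as many IP reads in a peak of low fold as in its strongest peak.

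XPOT, which exports tRNA, had 15 peaks and a best fold of 16.6, in a peak of 476 bp with its summit 16.01 kb from the 5′ end. Its peaks stopped 27.4 kb into a span of 46.7 kb. XPO7, an exportin of broad specificity, had 15 peaks with a best fold of 13.5, and XPO4, known for carrying EIF5A, had 16 with a best fold of 9.16. CSE1L, which returns importin alpha to the cytoplasm, had 9 peaks and a best fold of 10.6, and the remaining 8 had folds from 4.08 to 6.66. XPO6, the exportin of actin, had 3 peaks over 114.0 kb. XPO5, which exports precursors of microRNAs, had none in 53.7 kb, although the spans of XPOT and CSE1L are shorter.

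Importins of the beta family and transportins had peaks in 9 of 11 cases. IPO7, which imports ribosomal proteins among other cargo, and its close paralog IPO8 were both densely covered. IPO7 had 20 peaks (31.5 per 100 kb) and IPO8 had 26 (38.9 per 100 kb). The best peak of IPO7 had a fold of 20.3 with 40 IP reads, 32.5 kb from the 5′ end, and that of IPO8 had 14.98 with 29 reads. IPO8 nevertheless held more peaks with a fold of 10 or more, 11 against 7. Of the IPO8 peaks 17 lay at the lowest control level, against 3 in IPO7. TNPO1, the transportin of many hnRNP proteins, had 20 peaks, of which 5 reached a fold of 10, the best at 18.2. Its paralog TNPO2 had 2, at folds of 6.24 and 4.79, within 1 kb of its 5′ end. TNPO3, which imports SR proteins, had 5 peaks with a best fold of 8.67.

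IPO5 had 11 peaks and IPO11 had 12, the latter over a span of 215.8 kb. KPNB1, the importin that works with importin alpha, had only 4 peaks with a best fold of 6.66, and each lay at a control level of 1 or more, up to 4 reads. IPO9 had 2, and IPO4 and IPO13, whose spans are 8.598 and 21.1 kb, had none.

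Importin alpha proteins are adaptors that bind the classical nuclear localization signal and link it to KPNB1. Of these 4 of 7 had peaks. KPNA6 had 18, KPNA3 and KPNA4 had 10 each and KPNA1 had 5. KPNA6 reached a fold of 12.1. Apart from 1 peak at its start, its peaks lay between 46.6 and 66.5 kb of a 68.5 kb span, and 7 of them were in the last 10% of the span. The wide KPNA6 peak there, 1015 bp, and the strongest XPO1 peak were the only peaks of the set of 1000 bp or more. KPNA2, with a span of 11.1 kb, and KPNA5 and KPNA7, with spans of 60.7 and 73.6 kb, had no peak.

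Nucleoporins had peaks in 14 of 25 cases (56%) and transport receptors in 19 of 25 (76%), against 18.4% of all protein-coding genes. The median best fold was 8.43 in the nucleoporins and 10.6 in the receptors with a peak, against 7.04 over all genes with a peak. The difference between these roles was not tested. Members of the inner ring ranged from 30 peaks to none. NUP155 had 30 peaks spread over 82.97 kb, the most of the set, of which 9 had a fold of 10 or more and the best 14.98. NUP205 had 17 with a best fold of 9.64, and this best peak, 88 bp wide, had its summit 38 bp from the annotated start. The NUP205 paralog NUP188 had 2 peaks, at folds of 4.79 and 4.30 with 8 and 7 IP reads, the weakest best fold of the set. NUP93, the partner of both, had none in a span of 120.2 kb, and NUP35 had none in 44.2 kb.

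In the Y complex NUP133 had 9 peaks, NUP43 had 8, NUP160 had 5 and NUP107 had 1, while NUP37 and NUP85 had none. NUP43 stood out by fold with 13.5 as its best and 4 of its 8 peaks at 10 or more, in a span of 25.04 kb. The single NUP107 peak had a fold of 7.70 with 14 IP reads. Of the channel nucleoporins NUP98, which also acts in mRNA export, had 14 peaks with a best fold of 10.1, and NUP58 had 13 with a best fold of 11.6. NUP54 and NUP62, the partners of NUP58, had none. Of the basket proteins NUP153 had 15 peaks, with folds from 3.72 to 8.05, and NUP50 had 9 within 24.1 kb, 37.4 per 100 kb. TPR, which forms the filaments of the basket, had no peak in a span of 63.6 kb. On the cytoplasmic side NUP214 had 7 peaks with a best fold of 8.19, and NUP42 and NUP88 had none. The membrane nucleoporin NUP210 had 2, at folds of 5.85 and 4.52, and NUP210L and NUP62CL had none.

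RANBP2, the large cytoplasmic filament protein and SUMO ligase, needs a separate account because the annotation gives it a span of 1123 kb that runs over other protein-coding genes. Of its 18 peaks 14 lay in no other protein-coding span, all within 46.9 kb of its 5′ end, with folds from 4.25 to 5.76. The other 4 lay 848 kb or more from its 5′ end, in SEPTIN10 (1) and RGPD5 (3). RGPD genes are near-identical copies of part of RANBP2, so reads can be split among them and these counts are uncertain. RGPD6 had 1 peak and RGPD1, RGPD2, RGPD3, RGPD4 and RGPD8 had none.

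Folds among the members were highest where the control level was low. Of the 381 peaks 240 had a control level under 0.5, with a median fold of 7.22 and a median of 13.5 IP reads. A level of 2 or more was found at 62 peaks, which had a median of 30 IP reads but a median fold of 4.22 and at most 8.19. A peak at a higher control level needs more IP reads to pass the q limit of the list. The lowest fold of the set, 2.67 in IPO7, had a control level of 8 with 43 IP reads. Fold is a function of both quantities, so a low fold does not show that few IP reads were present. How many of the IP reads came from RNA bound to HNRNPC cannot be told from 1 IP library. A fold of 10 or more was reached by 63 peaks (16.5%, against 8.87% of all peaks in protein-coding genes), which lay in 15 members, and IPO8, NUP155, XPO1, IPO7, XPOT and TNPO1 held 47 of them. At the lowest control level were 47.8% of the member peaks and 47.5% of all peaks in protein-coding genes, and medians of IP reads were 16 and 15. A control level of 1 or more was found at 35.96% of the member peaks and 31.3% of all peaks in protein-coding genes.

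**Figure D2:**
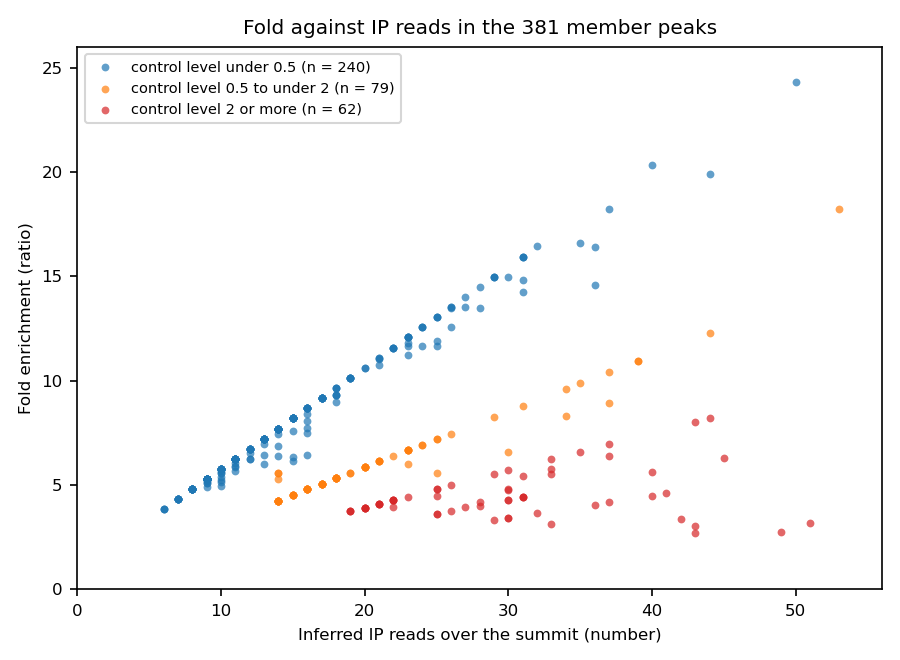
Fold enrichment (ratio) of each of the 381 peaks against the inferred number of IP reads over its summit, coloured by inferred control level. Peaks with a control level of 2 or more stay at a fold of 8.19 or lower with a median of 30 reads, whereas those under 0.5 rise to 24.3 at 50 reads.

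Position within the gene was examined where the start windows give the strand, which they do for 44 of the 50 genes and 29 of the 33 with a peak. NUP43, XPO7, KPNA4 and KPNB1 were not oriented. RANBP2 was left out for its span, which left 326 peaks in 28 genes. Peaks were spread along the gene, with 36 (11.04%) in the first 10% of the span and 24 (7.36%) in the last 10%. With RANBP2 there were 50 in the first 10%. Over all protein-coding genes 14.1% of 19183 oriented peaks lay in the first and 13.7% in the last 10%. The first 50% of the span held 51.5% of the member peaks (95% exact interval 45.96 to 57.1%) and 42.3% of all. Peaks of 1 transcript share their source, and the interval treats them as separate.

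**Figure D3:**
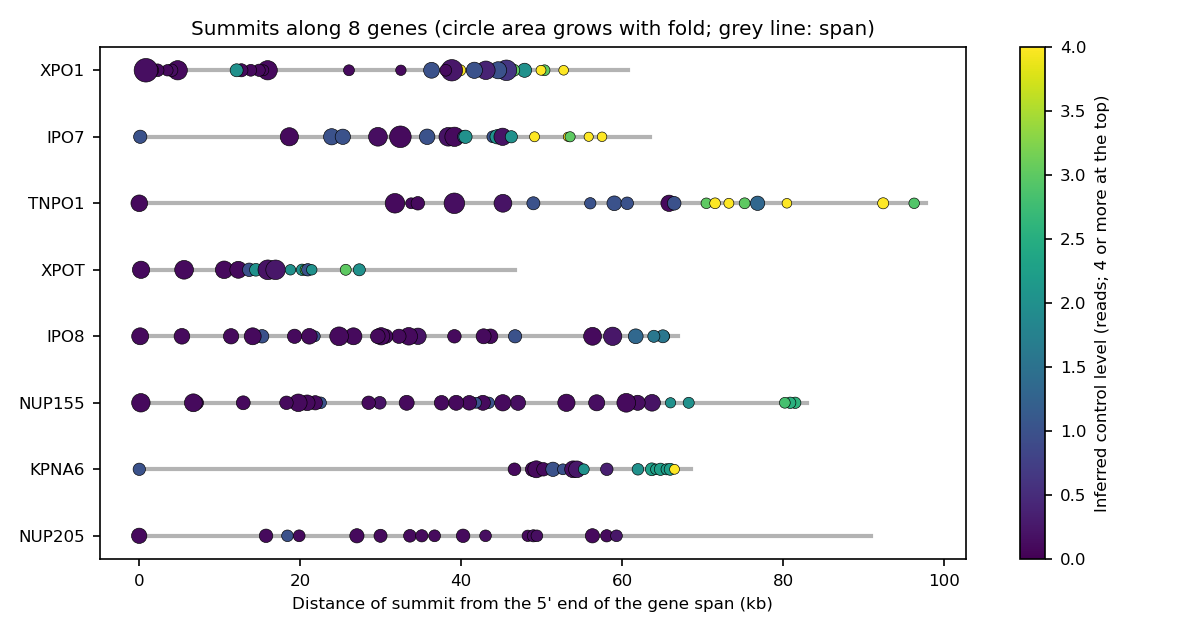
Summits along 8 of the genes with the highest folds or most peaks, as distance in kb from the 5′ end of the gene span (grey line); the area of a circle grows with fold and its colour gives the inferred control level. XPO1, IPO7, TNPO1 and NUP155 have circles of high control level toward the 3′ part, and XPOT and NUP205 have no summit in the last part of the span.

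IP reads and control level were both higher, and folds lower, near the 3′ end than near the 5′ end. These are not separate findings, since more IP reads are needed to pass the q limit of the list where the control level is higher. In the first 10% of the span 22.2% of the member peaks had a control level of 1 or more, and in the last 10% it was 87.5%, over 8 members. Median IP reads were 15 and 26.5, and median folds were 6.30 and 4.79. The part of the control level in the lower folds was not tested. Over all protein-coding genes the share with a control level of 1 or more went from 24.8% to 48.8%, median IP reads from 14 to 18 and median fold from 6.04 to 5.38. KPNA6 gave 7 of the 24 peaks in the last 10%. Without it the share there was 82.4% of 17 peaks and the median 25 IP reads. In IPO7 the 4 peaks in the last 20% of the span had folds from 2.67 to 3.60 at 25 to 49 IP reads and control levels of 3 to 9. The 16 before it had folds from 3.41 to 20.3 at 18 to 44 reads and control levels up to 4. NUP155 showed the same order, with control levels of 2 to 2.82 and folds up to 4.82 in the last 20%, although 26 of its 30 peaks lay before it. In IPO8 control levels went up to 3 in the last 20% of the span and up to 1 before it. Folds there went from 3.60 to 14.3, against 4.25 to 14.98 before it. The peak with a fold of 14.3 in the last 20% had a control level of 0.235.

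**Figure D4:**
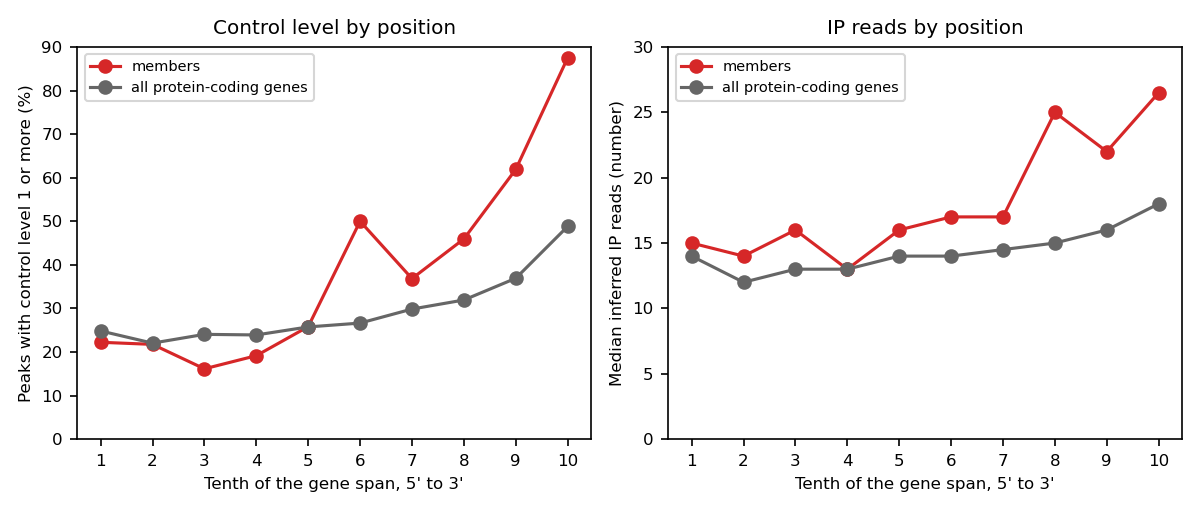
Share of peaks with an inferred control level of 1 or more (left, percent) and median inferred IP reads over the summit (right) in 10 equal parts of the gene span from 5′ to 3′, for the 326 oriented member peaks without RANBP2 and for all oriented peaks in protein-coding genes. The last of these parts reaches 87.5% and 26.5 reads in the members, against 48.8% and 18 over all genes.

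No summit of the oriented members lay within 1 kb of the 3′ end of the span (0 of 326, which allows a share of up to 0.920% if 3 counts are taken as the limit of a count of 0; the upper bound of the 95% exact interval is 1.13%). The nearest was in TNPO1, 1485 bp from it. Over all protein-coding genes such summits were also rare, 59 of 19183 (0.308%). Within 1 kb of the 5′ end lay 21 of the 326 (6.44%, 95% exact interval 4.03 to 9.68%), against 9.03% over all protein-coding genes. These shares over all genes within 1 kb of an end include genes of every span, short ones too. Within 5 kb of either end of the span lay 58 of the 381 member summits (15.2%, 95% exact interval 11.8 to 19.2%), against 20.1% of all summits in protein-coding genes with a span of 20 kb or more. The median member peak was 120 bp wide, and the median over all peaks was 125 bp. Exons and introns were not resolved here.

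Starts of transcripts were covered by a peak in many members. A start peak was defined as a peak over any of the first 50 bases from an annotated start. Of the 29 members with a peak and a start window 16 had one (55.2%, 95% exact interval 35.7 to 73.6%), against 42.4% of 3075 such protein-coding genes, a share within the interval. They were XPO1, TNPO1, NUP155, XPOT, IPO8, NUP205, XPO4, NUP133, IPO7, NUP98, TNPO2, NUP58, KPNA6, KPNA1, CSE1L and TNPO3. In 5 of these, XPO1, NUP205, XPO4, NUP133 and TNPO2, the start peak was also the best peak of the gene. XPO1 and TNPO1 had start peaks at 2 annotated starts each. At the second start of TNPO1 the peak began 1 base after the start and had a fold of 16.4 with 32 IP reads, and at the first it began 12 bases after and had 11.6 with 22 reads.

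The edge of these peaks lay close to the annotated start. In 14 of the 18 member start peaks (77.8%) the 5′ edge was within 20 bp of the nearest annotated start, as in 47.1% of the 1342 start peaks of all protein-coding genes. The edge was 9 bases after the start in NUP155, 7 in IPO8, 5 in NUP205 and 12 at the first start of TNPO1, whereas it was 17 bases before it in XPOT and 8 before it in IPO7. The strongest XPO1 peak began 192 bases before the annotated start used here and remained inside the annotated gene span. By its definition a start peak cannot begin beyond the first 50 bases from a start. Some peaks were wide, such as 469 bp in XPOT, and others short, such as 72 bp at the first start of TNPO1.

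**Figure D5:**
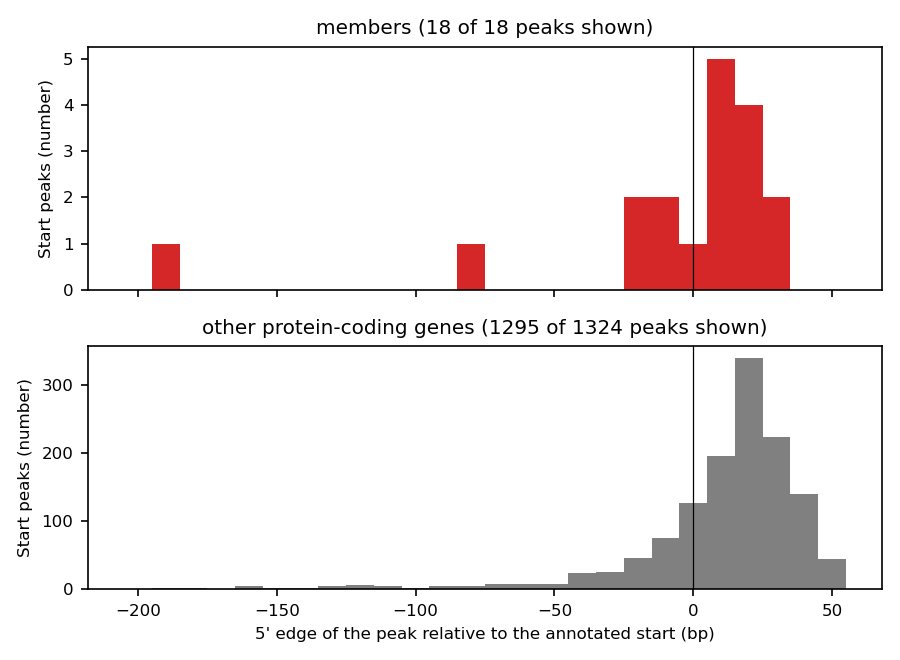
Distance in bp from the annotated start to the 5′ edge of the peak over it (negative: before the start), for the 18 start peaks of the members (top) and for those of the other protein-coding genes (bottom), as numbers of peaks per 10 bp. Most member edges, 14 of 18, lie within 20 bp of the start, and the XPO1 edge 192 bases before it is the farthest.

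The sequences printed above are rich in G and C. In the first 50 bases from the 20 member starts under a peak the G and C share had a median of 67% (50 to 82%), against 66% at all 1397 such starts and 64% at all 22199 starts of protein-coding genes. None of the 20 had a run of 5 T (TTTTT on the gene strand, U in the RNA) in these 50 bases (0 of 20, which allows a share of up to 15% by the same limit of 3 counts), and 2.57% of all starts had one. In the window of 300 bases, 250 before and 50 from the start on, 4 of 20 had such a run on the gene strand and 4 of 20 on the other strand (AAAAA), against 20.7% and 20.4% of all windows. With 20 windows, 4 is a share of 20%, next to that of all windows. The 20 windows come from 16 genes and are not all separate. The starts of XPO4 lie close together under the same peak, as do those of NUP98, so shared bases are counted more than once. Most bases of a start window lie before the start, and peaks further inside the genes were not read as sequence here, so these counts say nothing on runs of U under the other peaks.

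Other genes of the pore and of nuclear transport were counted from lists. Of 9 further pore proteins 5 had a peak (55.6%, against 18.4% of all protein-coding genes). AHCTF1, also called ELYS, which brings the Y complex to chromatin, had 28 peaks with a best fold of 9.16. SEH1L of the Y complex had 8 with a best fold of 9.92. The membrane nucleoporin NDC1 reached 11.1 in 6 peaks. POM121 had 5 and its close copy POM121C had 1, so both are uncertain. SEC13, AAAS, RAE1 and GLE1 had none. Of 8 genes of the RAN cycle only RCC1, the exchange factor of RAN, had peaks, 3 with a best fold of 6.998 and 44 IP reads there. RAN, RANGAP1, RANBP1, RANBP3, RANBP9, RANBP10 and NUTF2 had none. Of 18 genes of mRNA and snRNA export, most of them short with a median span of 13.4 kb, 2 had peaks, THOC2 of the THO complex with 18 and a best fold of 14.01 and the cap-binding gene NCBP1 with 6 and 7.22. NXF1, NXT1, ALYREF, DDX39A, DDX39B, THOC1, THOC3, THOC5, THOC6, THOC7, MCM3AP, PCID2, ENY2, PHAX, NCBP2 and SRRT had none. These shares of 12.5% and 11.1% stand beside 18.4% of all protein-coding genes, a share that does not take span into account. Median spans were 45.3 kb for the RAN cycle and 39.5 kb for the further pore proteins, against 24.1 kb for all protein-coding genes.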

How the data were processed

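The deposited file is the authors' peak list of the IP library. Per the submitters' processing notes the reads went through HISAT2, MACS2 and bedtools on hg38, in roles and an order that are not stated. Versions, settings and the control are not given in the sources used here. In the deposited file each peak has a position, a score equal to 10 times the −log10 q truncated to a whole number, a fold (ratio over background), and −log10 p and q values; the highest q is 0.00998. Read totals are not given. Peaks were called in 1 library, and the 37 peaks outside chromosomes 1 to 22, X and Y were left out.

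From these values summits were placed in RefSeq gene spans of GRCh38.p14 (a summit in several spans counted for each), and IP reads and control level were solved from fold and p. On 2000 simulated peaks 89.9% were solved, and all of those were right. The simulation used the same scoring formula, so it checks the solving and not whether the deposited values follow that formula. Genes were split into 10 equal classes by span. The set and lists were chosen with earlier results of these data known. Named by rule were XPO1, the 10 members with the highest best fold, the 10 with most peaks, the 5 densest and those without a peak. The remaining members are described so that the whole set is accounted for. The 10 parts of the span, start peaks and leaving out RANBP2 were added after the data were seen. Alternatives were a stricter q, a least fold, other overlap rules, control levels and distances. Software versions were matplotlib 3.10.9, scipy 1.17.1, pandas 2.3.3, numpy 2.4.6 and Python 3.11.15.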

Additional observations from a re-analysis of the deposited data

How the results depend on the processing

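The number of members with a peak stayed at 33 with −log10 q of 3 or more, a fold of 4 or more, any overlap of 1 bp, at least 50% of the peak in the span, and summits in a single protein-coding span. Over all protein-coding genes 16.7% had a peak at −log10 q of 3 or more, and shares at the other settings are not given. With peaks at a control level of 1 or more the number of members was 27, and NUP107, NUP160, NUP188, NUP214, TNPO2 and XPO4 had none. That restriction, which for the number of peaks was chosen after seeing the data, also left 137 of 381 peaks, a median best fold of 5.50 and an XPO1 best fold of 12.3, still the highest of the set, followed by IPO7 at 10.9; it removes by construction the peaks whose fold rests on the lowest control. The share of summits near an end was 8.14% within 2 kb and 22.8% within 10 kb. The share of member start windows under a peak with a T run was 40% for 4 T, 20% for 5 T and 0% for 7 T. These distances and lengths define the counts. Of 23 alternatives 17 stayed within the limits set for them. These were 1.5 times for counts, the exact interval for shares and the median, and an unchanged value for the XPO1 best fold. With 20 start windows the exact interval is wide, so the 40% for 4 T counted as within it. The planned count of T runs under all peaks was made on start windows only. With 6 to 53 IP reads over a summit, single folds have wide counting error, and 1 library allows no replicate check.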
